A study of Mus musculus with 6 samples.

Results

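The genes described here are the nuclear genes of oxidative phosphorylation, measured in acinar cells of the mouse pancreas, whose work is to produce and secrete digestive enzymes. They were taken by symbol, as every Nduf gene of complex I, every Sdh gene of complex II, the Uqcr genes and Cyc1 of complex III, the Cox4 to Cox8 genes of complex IV and the Atp5 genes of complex V, without symbols holding -ps. This gave 86 of the 55367 genes counted, with 37 in complex I, 4 in complex II, 9 in complex III, 19 in complex IV and 17 in complex V. The study deposited 6 RNA-seq libraries of 1 group, from untreated mice whose genotype is given as Pdx1-Cre; Klf5-mCherry-CreERT2, so that Cre is driven by the pancreatic Pdx1 promoter and a Cre fused to the oestrogen receptor is tied to Klf5. Each library was made from 300 GFP-positive sorted cells with a Smart-seq2 protocol and 12 cycles of preamplification, although no GFP reporter is named in the genotype. Neither the ages of the mice nor whether libraries came from separate animals is given, so p-values here measure only the spread between these libraries. The library names hold 1 of 2 numbers, which the labels do not explain, and these part replicates 1 to 3 (the first library set) from replicates 4 to 6 (the second). The sets were taken for what may be batches, since the study defines no groups by them.

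Oxidative phosphorylation takes place in the inner membrane of mitochondria. Complexes I and II pass electrons from NADH and succinate to ubiquinone, complex III passes them on to cytochrome c and complex IV to oxygen, and the proton gradient that complexes I, III and IV build drives ATP synthesis by complex V. A few core subunits of every complex but II are encoded by mitochondrial DNA, and all others by nuclear genes, several of which exist as isoforms used in different tissues. Acinar cells spend much ATP on protein synthesis, calcium pumping and secretion, and are known for dense mitochondria around the granule region.

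The promoters of these genes are known for sites of nuclear respiratory factor 1 (NRF1) and of the ETS factor GABPA, and sequences are shown here so that these letters can be read beside the levels. RefSeq promoter windows (build GRCm38.p6, 250 bases before to 50 after a gene's start) were matched for 69 of the 86 genes. The palindromic NRF1 motif (the first capitals in the Cox6a1 stretch printed here), searched like all others on both strands, stood in 5 of the 69 (7.25%) against 1.07% of all 27025 genes with a window, in Atp5g2, Atp5k, Cox6a1, Ndufa11 and Uqcrc1. With its sixth base free, a search that also takes every match of the first, it stood in 17 (24.6%) against 5.19%, 7 of them in complex I and 6 in complex V. The ETS letters CCGGAAG stood in 17 (24.6%) against 9.93%, among them Sdhb, Cox6a1, Cox6b1, Cox8a, Uqcr11, Uqcrh and Atp5e. The letters AAGATGGC of YY1 stood in 10 (14.5%) against 3.19%, and the motif of ZNF143 and THAP11 (the capitals in Uqcr10) in 2 (2.90%), Atp5d and Uqcr10, against 0.322%. The SP1 letters GGGCGG were at 42.0% against 38.2% and the TATA box letters TATAAA at 11.6% against 15.7%. These are shares of letters in a window and show no binding. Stretches of 5 promoters are printed 5′ to 3′ on the gene's strand, with the match in capitals: 2 with the full NRF1 motif (Cox6a1, which also holds a match with a free base, and Ndufa11), 2 with a free base (Ndufb4 and Sdha, so that complex II is included), and 1 with the ZNF143 and THAP11 motif (Uqcr10). They lie at chr5:115349041-115349129 (minus strand), chr17:56717686-56717736 (plus), chr16:37654525-37654584 (minus), chr13:74350281-74350308 (minus) and chr11:4704367-4704427 (minus).
Cox6a1: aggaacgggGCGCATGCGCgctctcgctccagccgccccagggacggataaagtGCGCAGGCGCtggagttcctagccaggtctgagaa
Ndufa11: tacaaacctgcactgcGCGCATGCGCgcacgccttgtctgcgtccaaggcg
Ndufb4: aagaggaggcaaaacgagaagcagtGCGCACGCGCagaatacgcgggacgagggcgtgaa
Sdha: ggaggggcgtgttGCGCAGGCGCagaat
Uqcr10: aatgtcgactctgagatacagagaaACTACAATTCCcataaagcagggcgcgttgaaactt
The median level of the 17 genes with the freer NRF1 motif was 21.9 TPM against 15.03 TPM for the 52 matched genes without them, and that of the 17 with the ETS letters 40.8 against 13.1 TPM. For the 29 genes with the SP1 letters it was 9.61 against 22.1 TPM in the 40 without. Unmeasured, near-zero or largely background genes entered these medians. For SP1, Ndufa13, Cox6b2 and Cox7b2 were with the letters and Cox7a1, Cox8b and Atp5o without. For the ETS letters all of these genes were in the group without. For the freer NRF1 motif Atp5o was in the group with it and the rest were in the group without. TPM is counts per base of the gene's principal transcript, scaled so that every library has the same sum over all genes, ribosomal RNA included. The genes behind those sequences ranged from Cox6a1 at 86.2 TPM down to Sdha at 3.34 TPM.

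The 6 libraries held 4670819 to 7072270 counts, of which 64273 in all fell on these 86 genes. Their share was highest in replicate 1, at 0.190% (exact Clopper-Pearson 95% interval 0.187% to 0.193%), and lowest in replicate 5, at 0.126% (0.123% to 0.130%). Where a library had 0 counts of a gene, up to 3 were possible, or 0.424 to 0.642 CPM, a scale that takes no account of gene length, and such intervals and floors cover counting error only. Ribosomal RNA took 38.1% to 60.9% of the counts, 42.3% on average in the first set and 60.3% in the second, and 24 listed digestive enzyme genes took 39.6% and 16.4%. Replicate 5 also had the highest background, with 345 counts per Mb of receptor genes for smell and pheromones, which should be silent here, against 26.7 to 112 in the others. All 9 acinar markers were at 1 TPM or more in every library, with a summed level of 61717 to 269952 TPM. Of 9 islet markers 3 (Ins1, Ins2 and Gcg) had a mean of 1 TPM or more, and their sum ranged from 10.6 to 2034 TPM. The ductal list had 3 of 6 such markers, fibroblasts 2 of 6, red cells 1 of 4, and endothelium, pericytes, leukocytes and striated muscle with brown fat none.

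The nuclear genes of oxidative phosphorylation were well measured in these cells. Of the 86, 74 reached 1 TPM in all 6 libraries, where 14.6% of 21950 protein-coding nuclear genes did. The median of their mean levels was 14.3 TPM, against 0.312 TPM over those 21950 genes. Of the 86 genes 10 averaged at least 50 TPM, as did 0.715% of all protein-coding nuclear genes. The genes that missed 1 TPM in some library were Uqcrc2 in replicate 5 alone, Ndufs1, Ndufa13, Cox4i1, Cox6a2 and the complex IV paralogues with low or no counts. Counts of overlapping genes limit the reading of some of them. Reads in the overlap of genes were lost in the counting, and Ndufa13, Cox4i1 and Cox6a2, whose exons lie wholly inside other genes' spans, had no counts in any library, from which no absence is read. Between 20% and 80% of the exons lay inside other genes for Atp5d (26.6%), Ndufb6 (39.0%), Ndufb8 (64.6%), Ndufb9 (69.0%), Ndufs1 (70.4%) and Atp5o (79.0%), whose levels are therefore too low by an unknown amount. Of the 77 genes with less overlap than that, 69 reached 1 TPM in all libraries, against 16.2% of such genes in general.

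**Figure D1:**
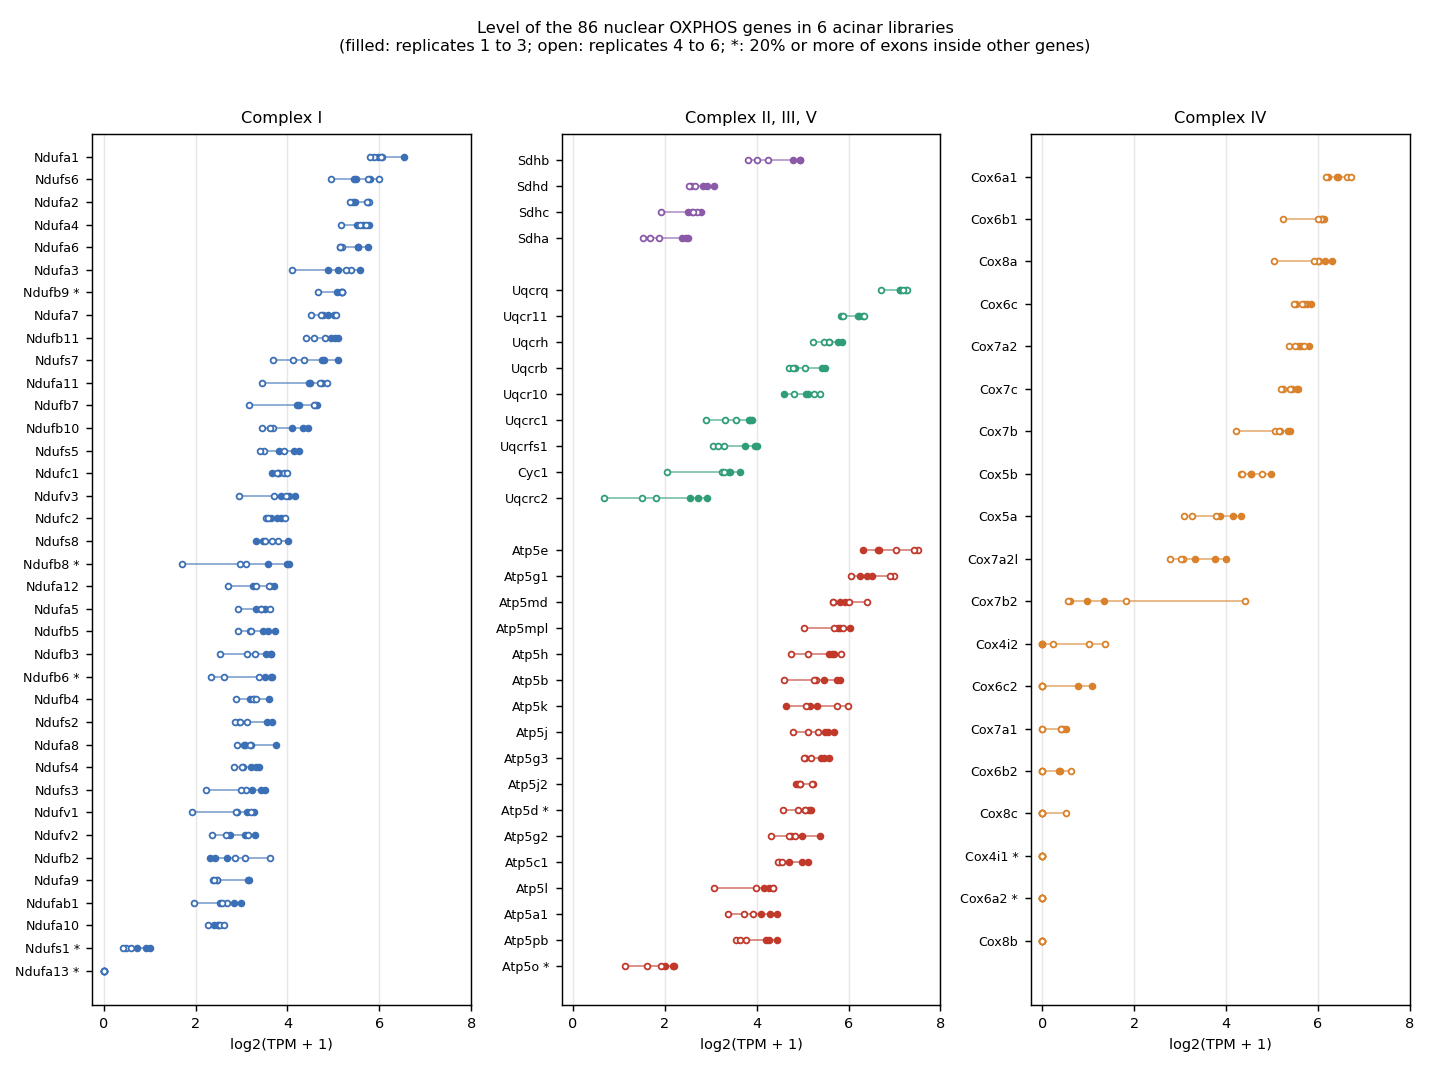
Level of each of the 86 genes as log2(TPM + 1) in the 6 libraries, ordered by mean TPM within complexes I, II, III and V, and IV; points are single libraries (filled for replicates 1 to 3, open for 4 to 6), lines span the lowest to the highest, and asterisks mark genes with 20% or more of their exons inside other genes. Uqcrq and Atp5e lead, Cox7b2 has the widest span, and complex IV parts into abundant genes and paralogues near 0.

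Complex V, the ATP synthase, and complex III stood highest as groups, complex V first except with whole gene spans or the union of exons as length, where complex III was. The mean of log2(TPM + 1) over the genes of a complex was 5.01 ± 0.21 for complex V (SD, n = 6 libraries), 4.58 ± 0.32 for complex III, 3.69 ± 0.22 for complex I, 2.95 ± 0.32 for complex II and 2.87 ± 0.09 for complex IV. The mean of complex IV takes in the paralogues near 0, and with genes under 20% overlap it was 3.21 ± 0.10, and as a median over its genes 3.38. The summed level was 702 ± 69.3 TPM for complex V, 645 ± 96.1 for complex I, 432 ± 52.5 for complex IV, 354 ± 46.6 for complex III and 36.1 ± 10.2 for complex II. At least 10 TPM on average was seen for 16 of 17 genes of complex V, 7 of 9 of complex III, 18 of 37 of complex I, 9 of 19 of complex IV and 1 of 4 of complex II.

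The counted levels of the subunits encoded by mitochondrial DNA differed widely, within complexes as well as between them. Their summed level was 1864 ± 205 TPM over the 7 genes of complex I, 822 ± 222 TPM for mt-Cytb of complex III and 391 ± 172 TPM over the 3 genes of complex IV, but 2.897 ± 1.499 TPM over both genes of complex V. Within complex IV mt-Co1 stood at 384 ± 172 TPM, and mt-Co2 and mt-Co3 at 3.24 ± 0.96 and 3.99 ± 0.79 TPM. How reads with several alignments were handled is not given in the sources used here. These values are therefore not set against the nuclear ones, and no difference between complexes or genes is read from them.

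Complex I oxidises NADH and is the largest complex of the chain. Its most abundant messages belonged to small accessory subunits. Ndufa1 (chrX:37187588-37191163, build mm10 here and below), a small membrane subunit needed for assembly, was at 55.0 to 91.8 TPM across libraries, with a median of 62.8 and a mean of 66.2 ± 13.2 (SD, n = 6). Ndufs6, which carries a zinc site, was at 47.7 ± 11.5 TPM, Ndufa2 at 47.4 ± 6.24, Ndufa4 at 46.7 ± 6.55 and Ndufa6 at 41.3 ± 7.82 TPM. Ndufa4 was named as a complex I gene, but its protein is now placed in complex IV. Ndufa1 was above Ndufs6 in all 6 libraries, and the neighbours after Ndufa1 in that order differed by less than their spread. The 7 core subunits that carry the flavin and the iron-sulphur clusters, a list made after the values were seen, ranged from 0.637 TPM for Ndufs1 to 22.2 TPM for Ndufs7, with a median of 7.78 against 12.7 TPM over the other 30 genes. Ndufs1, the subunit with the most clusters, had 68 counts in all, and 29.5% of them would be expected from background alone. Ndufa13, also called Grim-19, is the gene with no counts and whole overlap.

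Among genes of 5 TPM or more, variation between libraries was smallest for Ndufc1 (chr3:51404677-51408988), a small accessory subunit, with 13.0, 12.9, 11.7, 14.2, 12.6 and 14.98 TPM in replicates 1 to 6. Its coefficient of variation of 8.91% was no larger than the 9.48% that counting alone would give. Cox6c (9.79%), Cox7c (10.4%) and Cox7a2 (10.8%), all of complex IV, came next. The largest were Ndufb8 at 52.7%, Ndufb2 at 42.0%, Ndufb6 at 38.0% and Cox7a2l at 37.6%. Ndufb2 ran against most others: it was highest in replicate 5, at 11.4 TPM, and between 3.999 and 7.40 TPM elsewhere. Its length is uncertain, because equally ranked transcripts measure 455 and 4371 bases, and its mean of 6.46 TPM became 1.15 with the longer one.

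Complex II, succinate dehydrogenase, is also an enzyme of the citric acid cycle and is wholly nuclear. Its 4 subunits form the complex in equal copies, but their messages were unequal. Sdhb (chr4:140961203-140979193), the iron-sulphur subunit, was at 29.9, 26.7 and 29.7 TPM in replicates 1 to 3 and at 18.1, 15.1 and 13.1 TPM in replicates 4 to 6, a mean of 22.1 ± 7.56. Sdha, the flavoprotein that holds the active site, was at 4.48, 4.15 and 4.68 and at 2.65, 1.85 and 2.19 TPM, a mean of 3.34 ± 1.25. Both were lower in every library of the second set. The membrane anchors were at 5.84 ± 1.03 TPM for Sdhd and 4.81 ± 1.08 TPM for Sdhc. Within libraries, log2(TPM + 1) of Sdhb exceeded that of Sdha by 2.40 ± 0.13 (SD, n = 6), that of Sdhc by 1.95 ± 0.46 and that of Sdhd by 1.70 ± 0.31, each in 6 of 6 libraries. An exact two-sided sign-flip permutation test over 64 sign patterns gave p = 0.03125 for each, the smallest that 6 libraries allow, and an adjusted p of 0.0361 over the 15 pairs tested. The excess over Sdhc depends on length: without a length scale it was 0.66, with an adjusted p of 0.0670 in the exact test, and replicate 6 had 120 counts of Sdhb and 129 of Sdhc. The excess of Sdhb over Sdha ranged from 2.14 to 2.50 across libraries.

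Complex III passes electrons to cytochrome c. The gene with the highest mean of all 86 was Uqcrq (chr11:53427922-53430831), a small subunit next to cytochrome b, at 151, 138, 137, 153, 103 and 145 TPM, a mean of 138 ± 18.3 (SD, n = 6). Its rank rests on a principal transcript of 405 bases. An equally ranked one has 1521 bases, and with it the mean was 60.6 TPM and Uqcr11 led the complex. Uqcr11 stood at 69.6 ± 10.3 TPM, the hinge protein gene Uqcrh at 47.3 ± 7.49, Uqcrb at 32.8 ± 8.15 and Uqcr10 at 32.4 ± 6.38 TPM. The larger catalytic and core genes were lower: Uqcrc1 at 11.1 ± 2.97, the Rieske protein gene Uqcrfs1 at 11.02 ± 3.44 and cytochrome c1 (Cyc1) at 8.50 ± 2.83 TPM. The lowest was Uqcrc2 (chr7:120635176-120659524), the second core protein, at 5.55, 6.52 and 4.80 TPM in replicates 1 to 3 and at 2.50, 0.607 and 1.84 TPM in replicates 4 to 6. The sets did not overlap for this gene. Its exons lie 19.7% inside other genes.

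Complex IV, cytochrome c oxidase, reduces oxygen, and its nuclear subunits have isoforms that differ between tissues. In the families whose forms could all be counted, nearly all counts fell on the forms known from liver and most other tissues. Cox6a1 with Cox6a2 and Cox4i1 with Cox4i2 are left out of this, since Cox6a2 and Cox4i1 could not be measured. Cox6a1 (chr5:115345642-115348981) led at 85.6, 84.3, 73.8, 98.3, 71.2 and 104 TPM, a mean of 86.2 ± 13.1 (SD, n = 6). Cox6b1 followed at 61.5 ± 12.3, Cox8a at 60.8 ± 15.6, Cox6c at 49.8 ± 4.88, Cox7a2 at 47.6 ± 5.12, Cox7c at 41.2 ± 4.27 and Cox7b at 33.5 ± 8.45 TPM. Cox5b, at 23.4 ± 4.37, and Cox5a, at 13.0 ± 4.55 TPM, encode subunits that exist in 1 form each.

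The alternative forms were close to the floor. Cox8b (chr7:140898945-140900446), the heart and muscle form, had no count in any library although no other gene overlaps it, so that Cox8a was at least 311-fold higher per base, against a floor of 3 counts over the group. Cox7a1, another heart and muscle form, had 4 counts in all, and the ratio of Cox7a2 to it was 198 (exact 95% counting interval 77.0 to 727). Cox6b2, a testis form, also had 4 counts, and Cox6b1 stood 305-fold above it (119 to 1122). Cox8c, another testis form, had 1 count, and the ratio of Cox8a to it was 1187 (213 to 46902). Background alone would give 29.2% of the counts of Cox7a1, 19.7% for Cox6b2 and 73.2% for Cox8c, and these ratios do not subtract it. Cox6c2, which the annotation lists as a processed pseudogene, had 3 counts, 162-fold below Cox6c (55.2 to 786). All 231 bases of Cox6c2 align to Cox6c at 97.0% identity. Reads that fit both may have been counted at either or at neither, which that interval does not cover. Cox4i2, the form known from lung and from hypoxia, had 13 counts, all in the second set, of which 50.5% would be expected from background. Its abundant partner Cox4i1 could not be measured. None of the 8 markers of striated muscle and brown fat reached a mean of 1 TPM.

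The same pairs were tested within libraries on the log2(TPM + 1) scale. Cox6b1 exceeded Cox6b2 by 5.71 ± 0.35 (SD, n = 6) and Cox7a2 exceeded Cox7a1 by 5.30 ± 0.23, each in 6 of 6 libraries with p = 0.03125 and adjusted p = 0.0361 in the exact sign-flip test. The size of both differences depends on the pseudocount, since the lesser gene was near 0. Nothing is read from the test for Cox8a against Cox8b and Cox8c, which had counts in no library and in 1, so that their difference is set by the level of Cox8a. Cox7a2 also exceeded Cox7a2l, whose protein joins complexes III and IV into supercomplexes, by 2.27 ± 0.44 with the same p-values. The exception was the testis form Cox7b2 (chr5:71442824-71548205). It was at 0.473 to 2.53 TPM in 5 libraries and at 20.2 TPM in replicate 5, above Cox7b there (17.6 TPM). The difference of 3.45 ± 1.85 held in 5 of 6 libraries, with an exact p of 0.0625 and an adjusted p of 0.0670. Of the 81 counts of Cox7b2, 78.6% would be expected from background over its long span, and with background subtracted the difference was 4.37 and passed the test. Over all families 10 of the 11 measurable pairs in which each gene had counts in at least 2 libraries passed. Among the 10 are Cox6b1 and Cox7a2 against forms with 4 counts each, where the abundant gene all but fixed the sign. Both pairs with Atp5g1 are also among them, and their direction depends on the length taken for it.

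**Figure D2:**
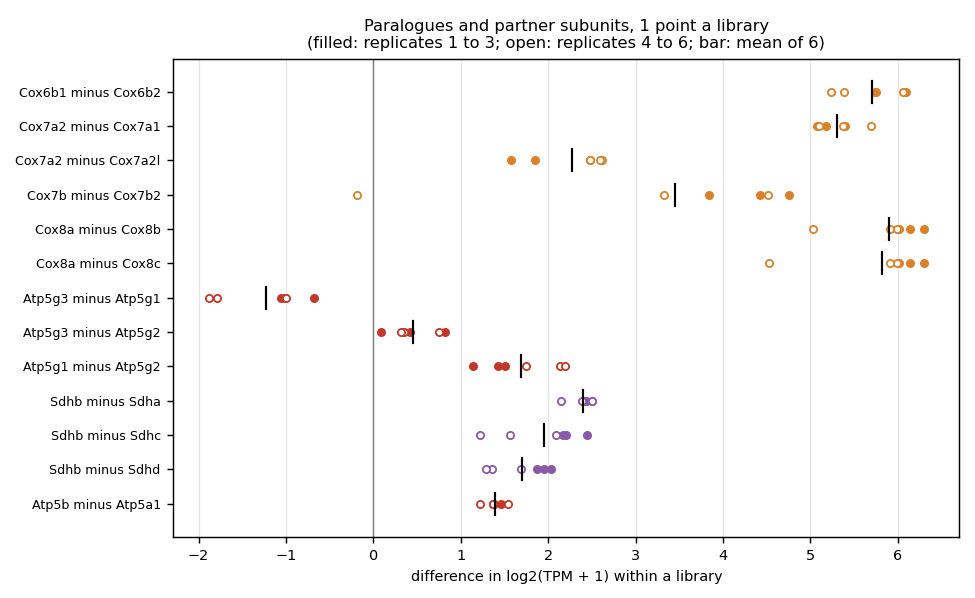
Difference in log2(TPM + 1) between the genes of each of the 13 measurable pairs within a library, 1 point per library (filled for replicates 1 to 3, open for 4 to 6), with the mean of 6 as a black bar. Cox7a2 stands 5.07 to 5.69 units above Cox7a1 and 1.58 to 2.62 above Cox7a2l, the points of the Cox8 pairs are mainly the level of Cox8a itself, Cox7b2 reaches Cox7b in 1 library at -0.18, and Sdhb stands above its 3 partners in every library.

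Complex V, the ATP synthase, makes ATP with a catalytic F1 head driven by a rotating ring in the membrane. Atp5e (chr2:174461072-174464105), the epsilon subunit of the central stalk, was at 101, 98.3 and 78.8 TPM in replicates 1 to 3 and at 130, 181 and 171 TPM in replicates 4 to 6, a mean of 127 ± 41.8 (SD, n = 6). It was higher in every library of the second set, against the direction of most of the 86 genes. The small membrane subunits Atp5md and Atp5mpl were at 60.2 ± 12.7 and 52.0 ± 11.1 TPM, and Atp5h, of the peripheral stalk, at 43.7 ± 11.5 TPM. The catalytic beta subunit gene Atp5b (chr10:128083273-128090391) was at 41.7 ± 11.7 and had the most counts of any of the 86 genes, 3395. The alpha subunit gene Atp5a1, which is made in as many copies per complex, was at 15.2 ± 4.13 TPM. Within libraries Atp5b exceeded Atp5a1 by 1.39 ± 0.11 on the log2(TPM + 1) scale in 6 of 6, with an exact sign-flip p of 0.03125 and adjusted p = 0.0361. The lowest gene was Atp5o at 2.69 TPM, with 79.0% of its exons inside other genes. The background expected over its span of 247290 bases, which joins 2 gene identifiers, came to 159% of its 94 counts, so its level is not told from background.

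The ring of complex V is built from subunit c, whose identical mature protein comes from 3 genes. Together they were at 160 ± 25.7 TPM. Atp5g1 was at 75.2, 90.4, 84.1, 125, 65.4 and 119 TPM, Atp5g3 at 46.6, 42.9, 41.4, 35.5, 32.2 and 31.6 TPM and Atp5g2 at 25.9, 40.4, 30.8, 27.6, 18.7 and 25.2 TPM. Atp5g3 was above Atp5g2 by 0.46 ± 0.28 on the log2(TPM + 1) scale in 6 of 6 libraries (exact sign-flip p = 0.03125, adjusted p = 0.0361). The place of Atp5g1 depends on its length: with 596 bases Atp5g3 minus Atp5g1 was -1.23 and Atp5g1 minus Atp5g2 1.69 on that scale, each the same way in 6 of 6 libraries. With the equally ranked transcript of 4715 bases Atp5g3 minus Atp5g1 was 1.67 and Atp5g1 minus Atp5g2 -0.50. Its mean was 93.2 ± 24.0 TPM with the shorter and 19.7 TPM with the longer transcript.

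Several of these genes have near-identical copies elsewhere in the genome, which could share reads with them. Of the 86 genes, 21 had at least 1 copy outside the group (95% identity over 200 aligned bases or more), 36 copies in all, and Cox6c and Cox6c2 are such copies of each other. The copies outside the group held 168 counts together, against 64273 on the 86 genes. Atp5l, of the membrane part of complex V, had the most, 9 copies with 43 counts. Reads that fit a gene and its copy may have been counted at either or at neither, so these counts do not bound the error of its level of 16.0 TPM. The median level was 23.4 TPM for the 21 genes and 13.04 TPM for the other 65.

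The libraries of the 2 name numbers were then compared, since the numbers may mark a batch. Most of the genes were lower in the second set, 5 of the 10 exceptions lay in complex V, and none passed the test with all 6 libraries. Of the 86 genes 76 passed the filter on low counts, 66 with a lower and 10 with a higher level in replicates 4 to 6, where 50.3% of all 8723 genes tested were lower. Their median log2 difference was -0.45, against -0.004 over all genes tested. At an adjusted p under 0.05 (edgeR quasi-likelihood test, Benjamini-Hochberg over all genes) 0 of 76 were higher and 0 lower, where 0.0115% and 0.0% of all genes were. At an unadjusted p under 0.05, 17 were lower and 1 higher, against 9.76% and 16.1% of all genes. TPM values of the sets did not overlap for 34 genes lower in the second set and for 2 higher, Atp5e and Ndufb2, against 14.8% and 17.2% of all genes. These counts are a description over genes chosen by symbol.

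The test across all genes gave these values for the genes that differed most. Sdhb had the smallest adjusted p, 0.0889, at a log2 difference of -1.03 (SE 0.27, edgeR). In the same edgeR test Uqcrc2 was at -1.79 (SE 0.49, adjusted p = 0.0901), Ndufb8 at -1.34 (SE 0.47, adjusted p = 0.118), Ndufs1 at -1.18 (SE 0.41, adjusted p = 0.115) and Sdha at -1.09 (SE 0.31, adjusted p = 0.0926). Ndufb8, an accessory subunit of complex I, was at 14.9, 15.3 and 10.9 TPM in the first set and at 7.54, 2.26 and 6.79 TPM in the second. On the other side of the edgeR test stood Ndufb2 at 0.66 (SE 0.35), Atp5e at 0.65 (SE 0.25, adjusted p = 0.136), Atp5k at 0.51 (SE 0.38) and Atp5g1 at 0.23 (SE 0.36). Atp5k, a membrane subunit involved in pairing the synthases, was at 38.5, 24.0 and 34.7 and at 52.9, 32.6 and 62.2 TPM, so that its sets overlapped. By complex, 34 of 36 genes were lower in complex I, 4 of 4 in complex II, 7 of 9 in complex III, 9 of 10 in complex IV and 12 of 17 in complex V.

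Single libraries decided these calls. Without replicate 4, 10 of the genes were lower at an adjusted p under 0.05 (edgeR), where 5.72% of all genes were, and 0 were higher, where 16.9% were. The 10 lower were Ndufb6, Ndufb8, Ndufb10, Ndufs7, Sdha, Sdhb, Uqcrc2, Uqcrfs1, Cox5a and Cox7a2l. Without replicate 5, 8 were lower and 3 higher, against 4.07% and 4.04% of all genes. The 3 higher were Atp5e, Atp5k and Atp5g1, all of complex V, and Sdha, Sdhb, Uqcrc2, Uqcrfs1, Ndufs7, Ndufb8, Ndufb10 and Atp5pb were the lower ones. Leaving out any of the other libraries gave 0 in either direction, as it did over all genes tested. DESeq2 with its own size factors called 5 lower, Sdha, Sdhb, Uqcrc2, Uqcrfs1 and Atp5pb, where 2.44% of all genes with an adjusted p were, and 0 higher, where 5.81% were. Sdha, Sdhb, Uqcrc2 and Uqcrfs1 were thus called by DESeq2 and without replicate 4 or 5, although not by edgeR with all 6 libraries. Without a filter on low counts edgeR called 2 lower, Uqcrc2 and Ndufb8, against 0.682% of all genes, and 0 higher, against 2.65%.

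The direction of the group as a whole depends on what the counts are set against. The 86 genes took 0.181% of all counts on average in the first set and 0.157% in the second. The sets overlapped there, at 0.173% to 0.190% and 0.126% to 0.176%, with replicate 5 the lowest. Outside ribosomal RNA the mean share of these genes was 0.315% and 0.395%, higher in the second set. Replicate 5, at 0.323%, lay there within the range of the first set, 0.307% to 0.326%. Outside ribosomal RNA and the digestive enzymes the mean share was 1.00% and 0.695%. The edgeR median of these genes stayed below 0 under each scaling, from -0.31 with library totals to -0.45 with TMM, where library totals moved the median of all genes to 0.19. Several other measures changed in the same libraries. Ribosomal RNA, the enzymes and the receptor background differed between the sets as given above. The acinar marker sum was 215026 to 269952 TPM in the first set and 61717 to 110255 in the second, and the islet marker sum 10.6 to 43.7 and 35.2 to 2034 TPM, with Ins2 at 997 and 1622 TPM in replicates 4 and 6 and no islet marker at 0 in all libraries. The part of these in the differences was not tested, and in sorted pools fewer cells of a type and less RNA per cell cannot be told apart.

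**Figure D3:**
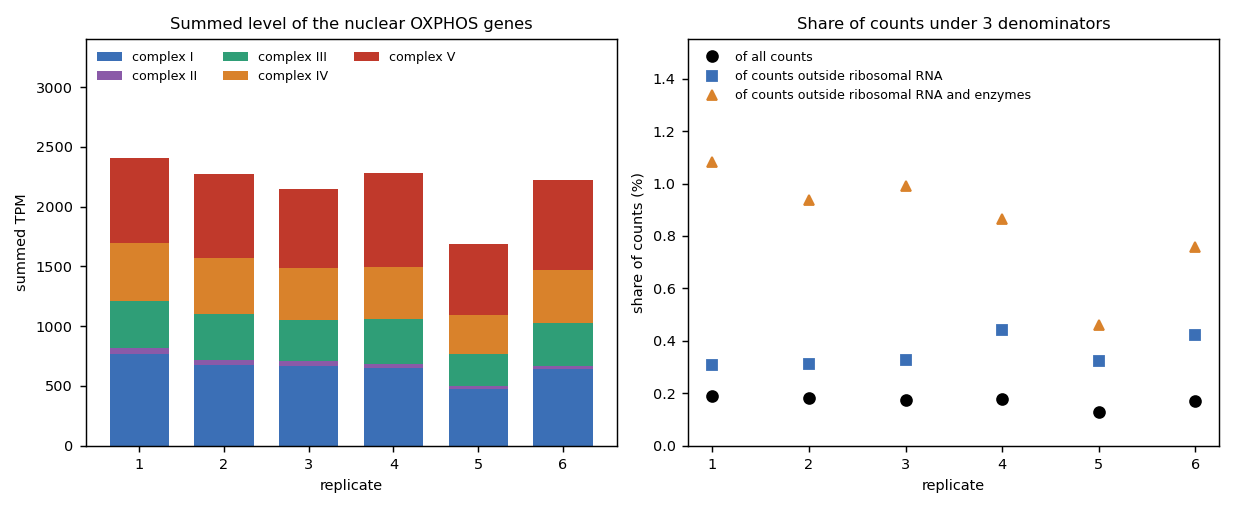
Left, summed TPM of the genes of each complex in replicates 1 to 6 as stacked bars; right, the share of counts on the 86 genes in the same libraries out of all counts (circles), of those outside ribosomal RNA (squares) and of those outside ribosomal RNA and digestive enzymes (triangles). Replicate 5 has the lowest sum, 1687 TPM, and the order of the means of the 2 sets changes with the denominator.

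Within the group, long transcripts differed more than short ones. Over the 76 genes the Spearman correlation of transcript length with the log2 difference was -0.51, and it was -0.43 to -0.53 without replicate 4, 5 or 6 in turn. Over 8417 protein-coding genes it was 0.40, in the other direction. These correlations are across genes, which share the libraries and are not independent replicates, and the relation was looked for after the values were seen. The median log2 difference was -0.22 for the 25 genes under 600 bases, as for all genes of that length (-0.20). It was -0.38 for the 24 from 600 to under 1000 bases (all genes -0.46). For the 27 of 1000 bases or more it was -0.64, where all genes were at 0.01. Lengths in that last class are not matched, since it has no upper limit and the longest of the 76 genes, Sdhc, had 3171 bases. Role and length go together in complexes I, III and V, where the core genes had the longer median transcript, but not in complex II. The 4 catalytic and core genes of complex III (Cyc1, Uqcrfs1, Uqcrc1 and Uqcrc2) had a median length of 1587 bases and a median difference of -0.83, and the 5 small ones 445 bases and -0.19. The 7 core genes of complex I had a median of -0.61, all lower, against -0.38 over 29 other genes that passed the filter. In complex V the 5 core genes, 4 lower and Atp5e higher, had a median of 1166 bases and -0.58. The 12 others there had 610.5 bases and -0.43. In complex II Sdha and Sdhb had a median of 2021 bases and -1.06, and Sdhc and Sdhd 2201 bases and -0.43.

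**Figure D4:**
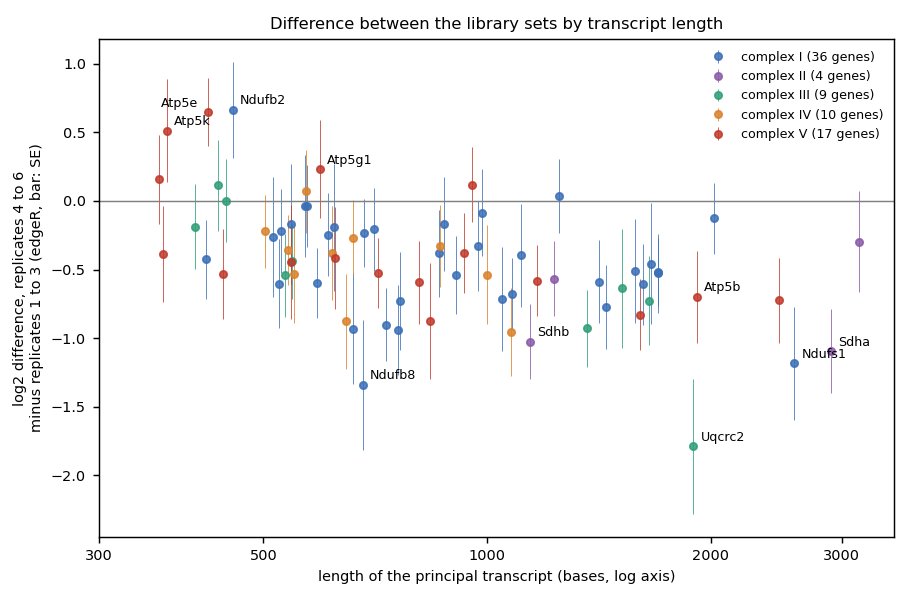
Log2 difference between replicates 4 to 6 and replicates 1 to 3 (edgeR, bars are SE) against the length of the principal transcript on a log axis, for the 76 genes past the filter, coloured by complex. Genes above 0 lie mainly among the short ones, and Uqcrc2, Ndufs1 and Sdha lie lowest among the long ones.

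Other genes of the pathway, in lists made by role, gave 0 calls in either direction at an adjusted p under 0.05 (edgeR). Of the citric acid cycle 13 of 16 genes past the filter were lower in the second set, with a median log2 difference of -0.67, and 7 were lower at an unadjusted p under 0.05, where 9.76% of all genes were. Idh2, the mitochondrial NADP-dependent isocitrate dehydrogenase, was at -1.60 (SE 0.35, adjusted p = 0.0874, edgeR) and Idh3b, of the NAD-dependent enzyme, at -1.09 (SE 0.29, adjusted p = 0.0889). Of the carriers and exchangers 8 of 9 were lower, with a median of -0.68. The adenine nucleotide carrier Slc25a5 was at 29.1 ± 7.47 TPM and the phosphate carrier Slc25a3 at 21.1 ± 6.996 TPM, and cytochrome c (Cycs) at 2.35 ± 0.96 TPM. The second nucleotide carrier, Slc25a4, known from heart and muscle, was at 1.07 ± 0.36 TPM.

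Assembly factors had lower medians than the 14.3 TPM of the subunits. The median of the mean levels was 0.805 TPM over 16 complex I factors, 0.776 over 10 for complexes II and III, 0.998 over 22 for complex IV and 1.82 over 4 for complex V, with genes listed at 0 that lie wholly inside others included. Single factors reached the level of subunits, as Coa3 of complex IV at 15.2 ± 7.01 TPM and Uqcc2 of complex III at 12.5 ± 1.08 TPM. Lower in the second set were 8 of 10, 4 of 6, 8 of 11 and 4 of 4 of those past the filter. The ATP synthase inhibitor Atpif1 was at 8.97 ± 3.05 TPM, with 63.5% of its exons inside other genes. The transcriptional regulators had a median of 0.833 TPM and split evenly, 6 lower and 6 higher of 12, with a median difference of -0.04. Nrf1, which encodes NRF1, was at 2.68 ± 1.29 TPM and at 0.89 (SE 0.31, adjusted p = 0.115, edgeR), Ppargc1a, the coactivator of mitochondrial biogenesis, at 1.23 (SE 0.43, adjusted p = 0.117) and the mitochondrial transcription factor gene Tfam at -1.07 (SE 0.53, adjusted p = 0.234). Background alone would give 31.0% of the counts of Nrf1 and 34.1% of those of Ppargc1a, and it was highest in replicate 5, in the second set. Its part in these differences was not tested.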

How the data were processed

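Per the submitters' processing notes, the authors used Trim Galore 0.6.4 and FastQC on the reads, STAR 2.7.9a for alignment to mm10, SAMtools, and featureCounts for counting. Each deposited file gives raw, unnormalized counts by gene symbol. Its Length column was the full genomic extent of the gene for the 55253 symbols that have 1 interval. Reads in introns therefore count too. Which annotation and strand setting were used, and what became of multiply aligned reads, is not given in the sources used here. The labels call the molecule genomic DNA although the assay is RNA-seq.

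From these counts TPM was computed with the length of the principal GENCODE transcript, the shortest where several were tied. Lengths were found for 55144 genes with 99.998% of the counts. The rank of transcripts was chosen after the values were seen. Levels are log2(TPM + 1), with a pseudocount of 1. Expected background is the counts per Mb over 1379 receptor genes without overlap, spanning 11.2 Mb, times a gene's span. All 6 libraries, with 4670819 to 7072270 counts, entered every main result. The sets named by number were compared by a quasi-likelihood test in edgeR 4.0.16 after TMM scaling and filterByExpr, and pairs by exact sign-flip permutation tests, both adjusted by Benjamini-Hochberg at 0.05. DESeq2 1.42.0, R 4.3.3, Python 3.11.15 and scipy 1.17.1 were also used, near-identical copies were sought with BLAST, and the edgeR step was tested on simulated data.

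Genes were named by rule: all Sdh genes, the 5 highest and the lowest of each other complex, both genes of each pair, the 4 most and 4 least variable at 5 TPM or more, the 4 largest differences in each direction, those with 20% or more overlap and those with no count. Other genes, and the lists of core subunits, were chosen after their values were seen. The genes, lists and tests were chosen with earlier results of these data known. Alternatives tried were other lengths, denominators, pseudocounts, normalizations and filters, background subtraction and leaving out each library.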

Additional observations from a re-analysis of the deposited data

Results flagged for a closer look

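In 9 of the 80 genes examined, 1 library's TPM stood apart from the other 5 beyond Dixon's 95% critical value for 6 samples. For a single gene chance alone gives this about 1 time in 20. The genes share the same 6 libraries, so their flags are not independent and the 9 are not set against that rate. Replicate 5 was the library that stood apart in 7 of the 9. It was the lowest for Uqcrq at 103 TPM (the others 137 to 153), Cox6b1 at 36.6 (63.0 to 68.9), Cox7b at 17.6 (32.7 to 41.2), Ndufb9 at 24.5 (32.8 to 35.3), Atp5l at 7.41 (14.9 to 19.4) and Cyc1 at 3.16 (8.43 to 11.5), and the highest for Cox7b2 at 20.2 TPM (0.473 to 2.53). Of 82 genes with counts, 50 had their lowest TPM in replicate 5 and 7 their highest. The shares over all genes are not given here, so nothing particular to these genes is read from such counts. The other flags were Ndufa8 in replicate 2 at 12.4 TPM (6.52 to 8.19 elsewhere) and Ndufa1 in replicate 1 at 91.8 TPM (55.0 to 66.1). Replicate 5 also had the fewest counts, the lowest enzyme share and the highest background. Their part in these values was not tested.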

How the results depend on the processing

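The mean log2(TPM + 1) of complexes I, II, III, IV and V was 2.39, 1.72, 3.57, 2.12 and 3.55 with whole gene spans as length, 5.07, 4.31, 6.02, 3.79 and 6.48 without ribosomal RNA in the denominator, 6.63, 5.89, 7.63, 4.85 and 8.11 without ribosomal RNA and enzymes, and 4.23, 3.58, 5.04, 3.30 and 5.49 with the longest tied transcript, an alternative chosen after seeing the data. With the union of exons, chosen likewise, complexes II, IV and V were at 3.53, 3.05 and 4.41, and without a length scale (CPM) at 3.89, 2.62 and 4.76. A pseudocount of 0.1 gave 3.45 for complex I and 1.63 for complex IV. Genes under 20% overlap gave 3.21 for complex IV and 5.22 for complex V, and the median over genes 3.38 for complex IV. Complex III was above complex V with whole gene spans and, at 4.79, with the union of exons. Complexes II and IV changed order between settings.

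Of all 15 pairs, those with a gene wholly inside others included, the number past the test fell from 13 to 0 with any 1 library left out, since 5 libraries allow no p below 0.0625, and every pair kept its direction there. Sdhb minus Sdhc lost its call without a length scale (0.66, adjusted p = 0.0670 in the exact test). Atp5g3 minus Atp5g1 turned from -1.23 to 0.24 with gene spans, 0.17 with the union of exons and 1.67 with the longest tied transcript, and Atp5g1 minus Atp5g2 to -0.50 with the last. Between the library sets the genes called lower numbered 0, but 5 with DESeq2, 2 (Uqcrc2 and Ndufb8) without a filter, where 0.682% of all genes were, and 0 to 10 with 1 library left out. Those called higher numbered 0 to 3, and the median difference was -0.71 to -0.23. Atp5g1 went from 0.23 to -0.10 without replicate 4 and 0.54 without replicate 5. Genes at 1 TPM in all libraries numbered 63 with gene spans and 73 to 77 under the other alternatives at that threshold. No paired analysis was possible because the labels give 1 group whose replicates are numbered 1 to 6, so no groups share numbers. Depth limits genes under about 3 counts a library.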
